A study of Mus musculus with 8 samples.

Results

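RNA made during the first 8 min of recovery from a transcription block was compared between mouse embryonic stem cells treated with 4-hydroxytamoxifen (4OHT) and with its solvent DMSO. All 38911 entries of the deposited table other than its 60 spike-in RNAs were taken, of 38971 in all. They were 37794 genes, 1039 repeat types and 78 structural RNA types. Both groups were male Ythdc1_cKO embryonic stem cells of 129 mouse origin, kept without feeders in serum and LIF. They received DMSO or 4OHT at 1 μg/ml for 4 days, then in both groups DRB at 100 μM for 3 h, a wash, and 4-thiouridine (4sU) at 1 mM for 8 min. Each group had 2 libraries, and 4 further libraries of 0 min of labelling, 2 for each treatment, served as a background. By the titles the 8 min libraries are of the stem cell line numbered 2 and the 0 min libraries of the line numbered 1. Which part of Ythdc1 is deleted, what drives the recombinase, and whether the lines are clones are not given in the sources used here. No group received 4OHT without the conditional alleles, so the effects of 4OHT and of the deletion cannot be told apart.

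YTHDC1 is the nuclear member of the YTH family, which bind N6-methyladenosine (m6A) in RNA, and it is known in embryonic stem cells for acting on splicing, on RNA turnover and on the silencing of retrotransposons. DRB holds RNA polymerase II near gene starts, and washing it out releases the polymerases together. The nucleoside 4sU is built into RNA made after the wash and lets that RNA be pulled out. A value at 8 min therefore reports mainly transcription near gene starts, with some older RNA that is carried through the purification. The 2 libraries of a group are not stated to come from separate cultures, so p-values measure the spread between these libraries only.

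The 4 libraries of 8 min held 93.0 M to 134 M reads (M, mega), and a value of 1 after rescaling stood for 11.45 to 16.96 reads. Spike-in reads made up 272 and 674 ppm of reads with DMSO and 413 and 386 ppm with 4OHT. In each library 68.3% to 69.1% of reads lay on genes and 30.6% to 31.3% on repeats. The standard deviation of the log2 difference between libraries of a group was 0.33 with DMSO and 0.29 with 4OHT, against 0.62 to 0.68 between any DMSO and any 4OHT library. Column names number the libraries 1 and 2 at each time, which does not match the titles' single line number for each labelling time, so each column was tied to its group and to no single sample.

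With 4OHT, 3969 of 19412 genes tested were higher and 3109 were lower, which is 20.4% and 16.0% of genes (limma, adjusted p under 0.05). The genes called higher had a median log2 change of 0.67, and 900 of them passed 2-fold and 87 passed 4-fold. The genes called lower had a median of -0.72, with 843 past 2-fold and 109 past 4-fold. The median over all genes tested was 0.02. Of the 7192 calls over all entries, 7178 had both 4OHT libraries on the same side of both DMSO libraries. The same held for 13121 of all 19412 genes tested and for 6057 of the 12334 genes not called. These counts rest on a few settings, as follows. On the deposited scale the median gene was shifted up by 1.44, and the calls became 12353 higher and 22 lower, so 99.8% instead of 56.1% of calls were higher. After scaling by the spike-ins (median shift 0.13) limma called 0 genes each way, with 176 higher and 124 lower at an unadjusted p under 0.05. A fit over all 8 libraries called 2 genes higher and 22 lower (1036 and 999 at an unadjusted p under 0.05), and edgeR and DESeq2 on the recovered reads of the 4 libraries called 3698 and 3804 higher and 3261 and 3307 lower. Leaving out the first 4OHT library left 2312 genes higher and 1985 lower. Where limma called 0 members of a list in 1 direction below, edgeR and DESeq2 also called 0 and an unadjusted p under 0.05 gave 0, other than 1 DNA replication gene and 1 heat shock chaperone gene higher at an unadjusted p under 0.05, and 1 B2 or B3 repeat type lower by all 3 of these readings. All changes here are read relative to the median gene, after rescaling by the median ratio. In bulk RNA, a change in a share of the cells and a change within every cell cannot be told apart.

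**Figure D1:**
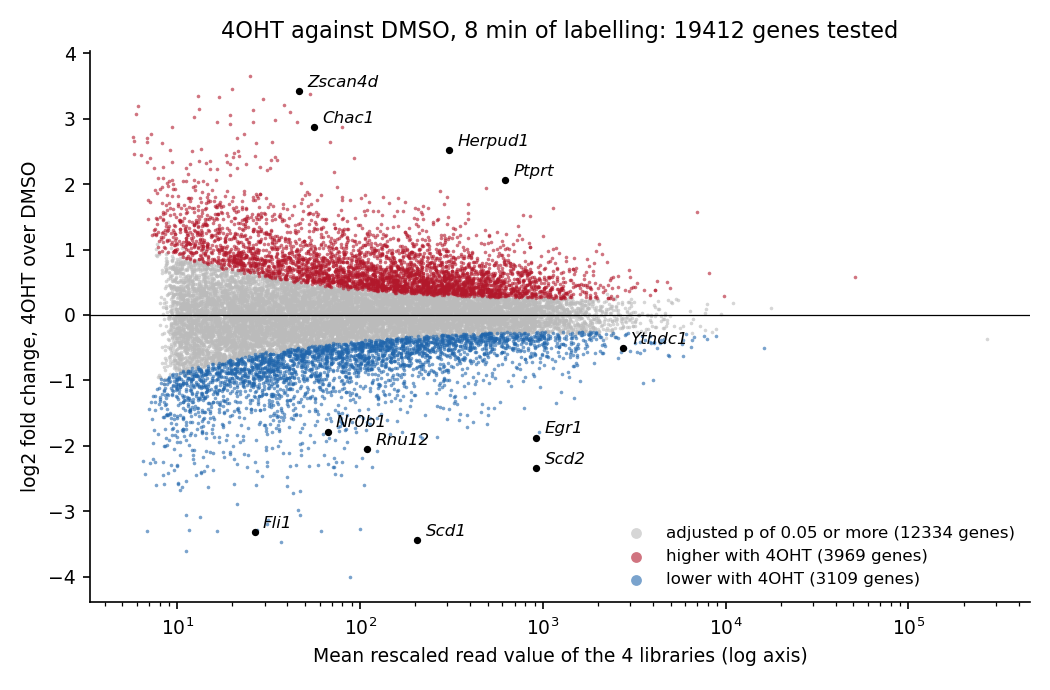
Each point is 1 of the 19412 genes tested, with the mean rescaled value of the 4 libraries on a log axis and the log2 change of 4OHT over DMSO on the other. Red points are the 3969 genes higher with 4OHT, blue points the 3109 lower, and grey points were not called. Herpud1 and Ptprt stood far above, and Scd1 and Scd2 far below, other genes of like level.

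The targeted gene was read first. Ythdc1 (chr5:86803980-86836659, GRCm38.p6, 32.7 kb) had rescaled values of 2884 and 3537 with DMSO and 2057 and 2466 with 4OHT, and the groups did not overlap. Its log2 change was -0.50 (SE 0.11, limma adjusted p = 0.00212), and without the first 4OHT library the adjusted p was 0.090. At 0 min the DMSO libraries gave 160 and 185 and the 4OHT libraries 157 and 266. The table gives 1 value per gene, which does not show whether the deleted part was still transcribed. The other YTH readers were not called: Ythdf1 had a log2 change of -0.15, Ythdf2 -0.04, Ythdf3 -0.11 and Ythdc2 -0.02. Of the 8 members of the m6A writer complex, Rbm15b, which guides the complex to its targets, fell from 291 and 279 to 196 and 158 (log2 change -0.69, limma adjusted p = 0.000432). Virma, the scaffold of the complex, rose from 347 and 360 to 471 and 444 (0.37, limma adjusted p = 0.0126; 0.11 without the first 4OHT library). The catalytic subunit Mettl3 was at 229 and 286 with DMSO and 276 and 301 with 4OHT, a difference within the spread of the libraries.

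Among genes with a mean value of at least 100, the largest rise was in Herpud1 (chr8:94386429-94395371), which acts in the degradation of proteins of the endoplasmic reticulum. It went from 97.6 and 82.1 with DMSO to 589 and 456 with 4OHT (log2 change 2.52, SE 0.14, limma adjusted p = 9.67e-10). Ptprt, a receptor tyrosine phosphatase spread over 1139 kb of chromosome 2, rose from 246 and 233 to 983 and 1027 (2.07, limma adjusted p = 2.9e-10). Slc1a4, a carrier of neutral amino acids, rose from 220 and 182 to 810 and 732 (1.94, limma adjusted p = 3.31e-09). Perp, a membrane protein and a target of p53, rose from 99.8 and 134 to 402 and 464 (1.89, limma adjusted p = 2.22e-08). Abcg1, which exports cholesterol, rose from 48.0 and 41.6 to 174 and 140 (1.79, limma adjusted p = 2.16e-07). In each of these genes the lowest 4OHT library was well above the highest DMSO library. The genes were taken only from calls whose groups did not overlap, so this is in part their selection. Others of the 15 largest rises were Mfap3l (1.84), Trim36 (1.8), the lysosomal sialic acid carrier Slc17a5 (1.79), the transcription factor Nfia (1.72) and the Ras regulator Dab2ip (1.70).

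The largest fall was in Scd1 (chr19:44394450-44407709), a stearoyl-CoA desaturase that makes monounsaturated fatty acids. It stood at 362 and 390 with DMSO and 32.0 and 35.3 with 4OHT (log2 change -3.44, SE 0.14, limma adjusted p = 1.92e-11). Its neighbour Scd2 (chr19:44293676-44306864) fell from 1511 and 1565 to 299 and 306 (-2.34, SE 0.10, limma adjusted p = 1.92e-11). Mir5114 lies within Scd2 and its value (-2.33) cannot be told apart from that of its host. Both desaturase genes had 4OHT libraries close together and far below the DMSO libraries. The protocadherin gene Pcdh7 fell from 166 and 172 to 33.4 and 39.1 (-2.19), and Pdp2, which encodes a phosphatase that activates pyruvate dehydrogenase, fell from 194 and 206 to 45.9 and 46.9 (-2.08). Egr1, an immediate early transcription factor, fell from 1534 and 1356 to 424 and 363 (-1.88, limma adjusted p = 2.02e-09). Hist1h2ac, a histone H2A gene, fell from 1385 and 1575 to 388 and 465 (-1.79, limma adjusted p = 3.72e-09). Among genes with a mean of 10 to 100, the falls were led by the cytokine receptor gene Il23r (57.5 and 78.6 to 7.83 and 3.30, log2 change -3.47), Fli1, an ETS transcription factor (42.5 and 55.5 to 4.05 and 3.89, -3.32), and Gys2, the liver glycogen synthase (90.8 and 133 to 7.83 and 13.2, -3.31). Il23r and Fli1 passed the minimum through the DMSO libraries alone.

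**Figure D2:**
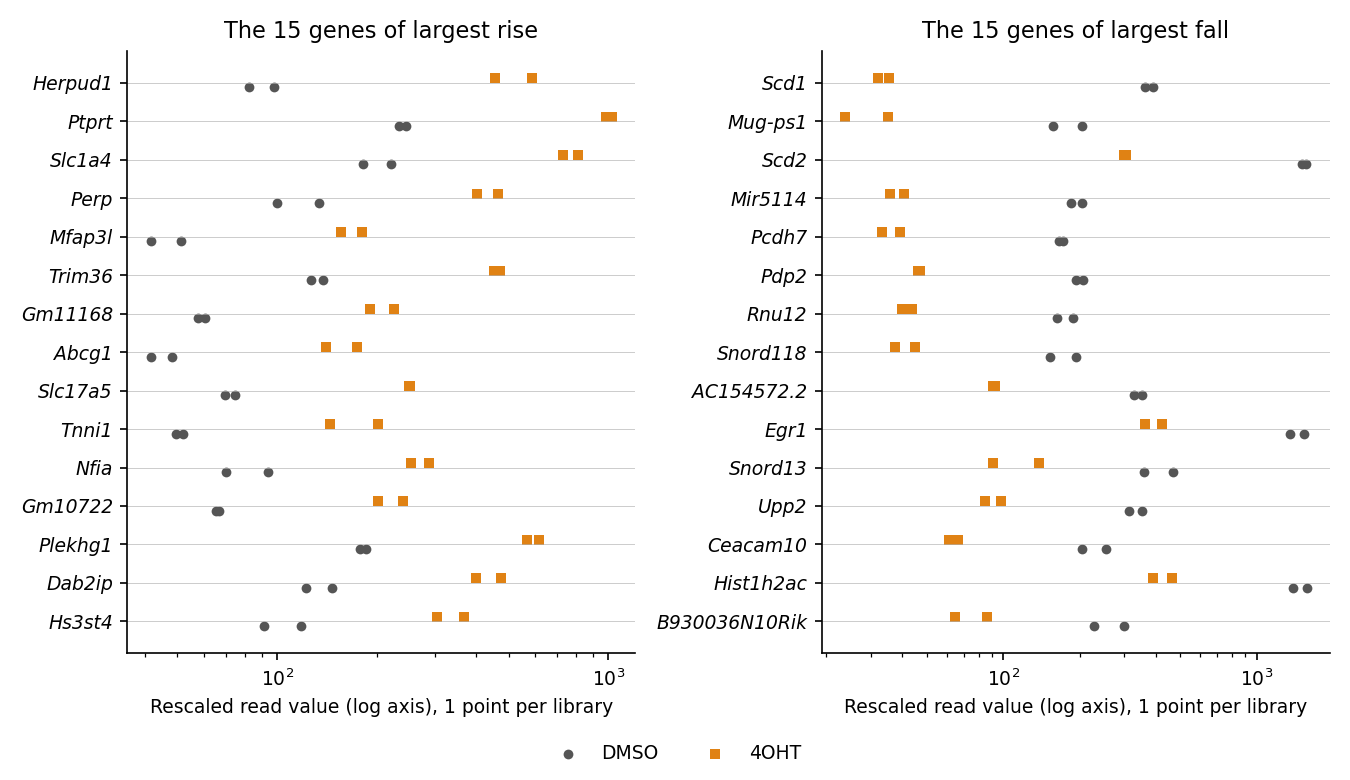
Rescaled read values (log axis) of the 15 genes of largest rise and the 15 of largest fall among genes with a mean of at least 100. Each point is 1 library, 2 with DMSO (circles) and 2 with 4OHT (squares). Only called genes whose groups do not overlap were taken, so the separation follows from the choice.

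Sterol synthesis begins from acetyl-CoA and runs through the mevalonate enzymes, and the factor SREBP2, encoded by Srebf2, drives most genes of the route when membrane sterol is low. Of 25 genes of sterol synthesis and uptake tested, 23 fell and 0 rose, against 16.0% of all genes called lower, and their median log2 change was -1.22 against 0.02 over all genes. With any 1 library left out 23 or 24 were called lower, though the fit over all 8 libraries called 0. The list was in part put together from genes seen to fall in these libraries, so its direction is not independent evidence. Some members carry known elements just before their start, and these are shown for the genes whose values follow. The sterol element was searched as TCACNCCAC and the CCAAT box, the site of NF-Y, as CCAAT, on both strands, in RefSeq promoters of 250 bases before to 50 after the start (GRCm38.p6). The stretches printed end before the start, and capitals mark the sterol element in Hmgcs1 and the CCAAT box in the others. Hmgcs1 is at chr13:119690154-119690282 on the plus strand, Idi1 at chr13:8885501-8885605 on the plus strand, Mvd at chr8:122443423-122443542 on the minus strand and Cyp51 at chr5:4104698-4104786 on the minus strand.
Hmgcs1: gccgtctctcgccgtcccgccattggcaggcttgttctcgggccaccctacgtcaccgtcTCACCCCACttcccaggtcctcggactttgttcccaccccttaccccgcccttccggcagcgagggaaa
Idi1: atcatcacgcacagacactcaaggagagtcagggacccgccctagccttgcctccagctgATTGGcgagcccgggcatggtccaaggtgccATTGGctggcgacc
Mvd: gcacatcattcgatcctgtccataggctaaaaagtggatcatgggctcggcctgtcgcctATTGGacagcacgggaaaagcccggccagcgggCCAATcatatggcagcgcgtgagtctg
Cyp51: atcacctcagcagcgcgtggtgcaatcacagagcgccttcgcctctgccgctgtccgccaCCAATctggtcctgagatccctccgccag

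Hmgcs1, which makes HMG-CoA, had values of 1648 and 1842 with DMSO and 827 and 717 with 4OHT (log2 change -1.18, limma adjusted p = 1.54e-07). Its DMSO libraries lay above its 4OHT libraries by more than the spread within a group. Among the mevalonate enzymes Pmvk changed by -1.72, Mvd by -1.40, and Idi1 fell from 1101 and 1203 to 446 and 414 (-1.42). Fdps, which makes farnesyl diphosphate, fell the furthest of the list, from 109 and 123 to 28.5 and 31.9 (-1.91). Later steps fell too, with Sqle, the squalene epoxidase, from 496 and 543 to 177 and 184 (-1.52) and Cyp51 from 679 and 782 to 276 and 263 (-1.43). Regulators moved the same way but less, Insig1 by -1.02 and Srebf2 by -0.70. Ebp (-0.62, limma adjusted p = 0.139) and Acat2 (-0.27, limma adjusted p = 0.124) were not called. A CCAAT box was found in 15 of 17 sterol genes with a promoter in the table (88.2%, 14 of them called lower), against 37.9% of 27025 promoters, while the sterol element was found in 1 of the 17 and in 1.22% of all. Promoters of other lists held CCAAT about as often, with 95.0% of mitosis genes and 85.2% of histone genes.

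Genes of fatty acid synthesis fell as well. Of 20 genes of fatty acid synthesis and desaturation, 13 fell and 1 rose, with a median of -0.61. Besides both desaturases, Fasn, the fatty acid synthase, fell from 923 and 891 to 394 and 460 (log2 change -1.09, limma adjusted p = 5.16e-07). Fads1, a desaturase of polyunsaturated fatty acids, fell from 165 and 161 to 86.1 and 78.6 (-0.98), the elongase gene Elovl6 from 988 and 971 to 669 and 562 (-0.68), and Srebf1, which encodes SREBP1, from 826 and 694 to 467 and 487 (-0.67). The single member that rose was the elongase gene Elovl7, from 32.1 and 30.6 to 73.8 and 62.5 (1.09, limma adjusted p = 0.000228). Acly, which supplies acetyl-CoA, was at 1168 and 1107 with DMSO and 1165 and 954 with 4OHT and was not called, nor was Acaca (-0.20). The sterol exporter Abcg1 and the lysosomal cholesterol carrier Npc1 (65.8 and 68.1 to 139 and 112, 0.89) rose, opposite to the synthesis genes.

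In the list of glycolysis and the hypoxia response, 9 of 28 members fell and 2 rose (1 without the first and 3 without the second 4OHT library), with a median of -0.13. Over all genes tested 20.4% were higher and 16.0% lower. The falls in the list were in single steps and not along the whole route. Slc2a3, a glucose transporter, fell from 2013 and 2177 to 843 and 900 (log2 change -1.26, limma adjusted p = 3.28e-08). Pfkp, a phosphofructokinase, fell from 495 and 448 to 191 and 185 (-1.32), Aldoc, an aldolase, from 53.7 and 61.5 to 13.9 and 13.3 (-2.0), and Ldha, the lactate dehydrogenase, from 426 and 368 to 198 and 198 (-0.99). Pfkl, another phosphofructokinase, rose from 127 and 122 to 174 and 176 (0.49). At 0 min the list had a median of -0.195, with 4 of 28 members above 0, so its lower median was not particular to 8 min.

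**Figure D3:**
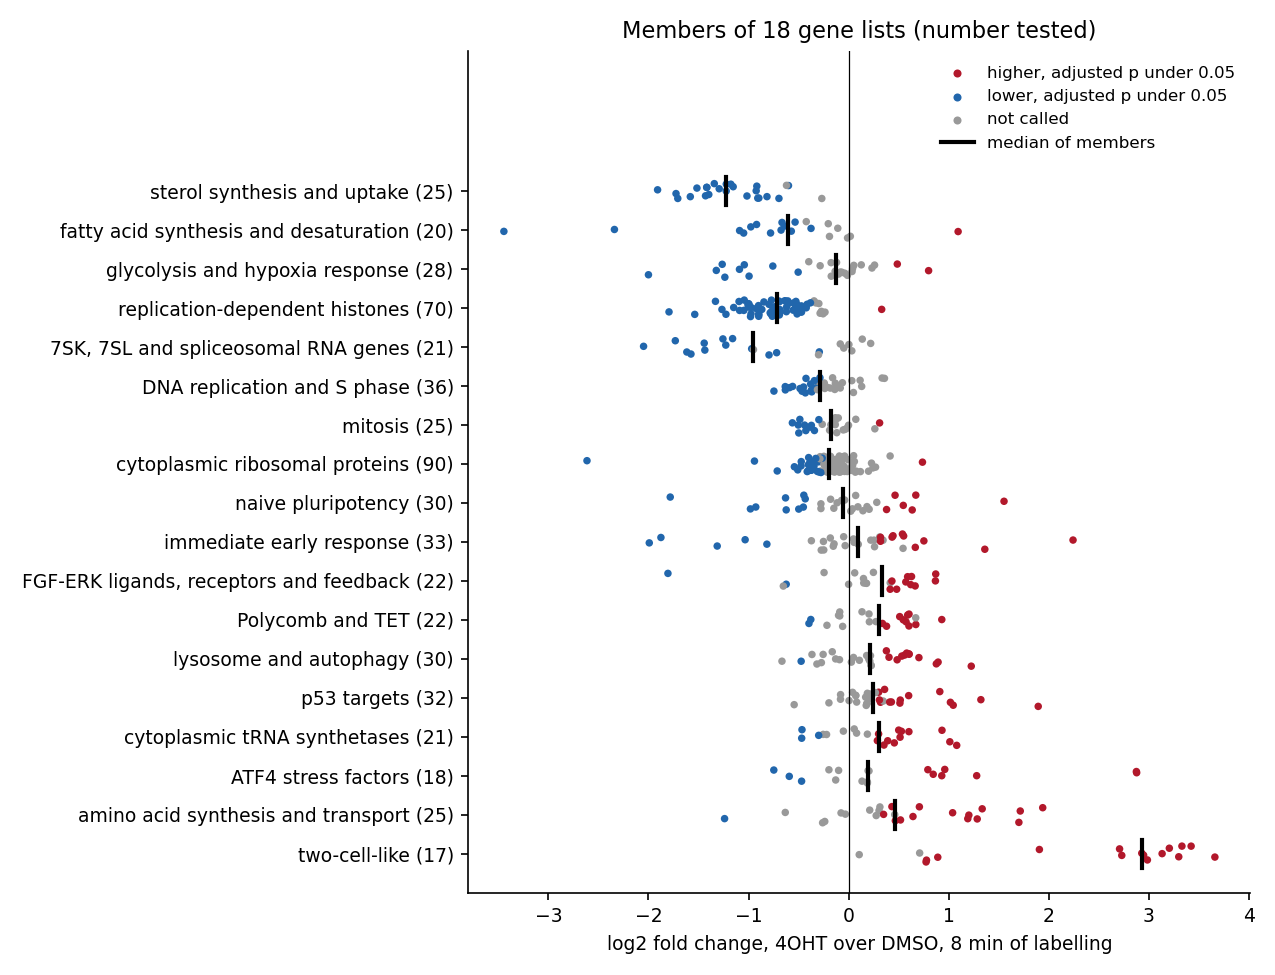
Each point is 1 tested member of 18 gene lists, placed by its log2 change of 4OHT over DMSO at 8 min, with the number tested in parentheses. Black bars are the medians of the members, red and blue points passed the adjusted p of 0.05, and grey points did not. The sterol list has its median at -1.22 and the amino acid list at 0.46.

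Genes of amino acid supply moved the other way. The transcription factor ATF4 is made when protein synthesis is slowed by the kinases of the integrated stress response, and it acts on genes for amino acid synthesis, transport and tRNA charging through a composite CEBP-ATF element. Of 25 genes of amino acid synthesis and transport 14 rose and 1 fell (2 without the first 4OHT library), with a median of 0.46, against 20.4% higher among all genes. Of 21 cytoplasmic tRNA synthetase genes 12 rose and 3 fell (median 0.30). Without the first 4OHT library these were 8 and 0, and without the second DMSO library 10 and 0. The element was searched as TGATGNAA on both strands in the same promoter windows. It was found in 13 of 50 promoters of these lists joined with the list of ATF4 stress factors (26.0%), of which 10 belonged to genes called higher and 0 to genes called lower. Of all 27025 promoters 4.06% held it, of those of genes tested 2.35%, of genes called higher 2.95%, of genes called lower 2.81% and of genes not called 2.02%. The windows below end before the start, with the element in capitals, for 4 genes that rose (Chac1, Asns, Gars and Aars) and for Slc7a11 and Pycr1, which hold the element and were not called. They lie at chr2:119350992-119351116 on the plus strand (Chac1), chr6:7693210-7693292 on the minus strand (Asns), chr6:55037911-55038000 on the plus strand (Gars), chr8:111033670-111033797 on the plus strand (Aars), chr3:50443614-50443739 on the minus strand (Slc7a11) and chr11:120643784-120643911 on the minus strand (Pycr1).
Chac1: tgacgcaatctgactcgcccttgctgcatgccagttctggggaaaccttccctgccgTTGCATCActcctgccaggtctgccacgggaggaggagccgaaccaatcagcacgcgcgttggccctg
Asns: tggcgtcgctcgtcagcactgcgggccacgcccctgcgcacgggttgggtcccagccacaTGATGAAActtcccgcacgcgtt
Gars: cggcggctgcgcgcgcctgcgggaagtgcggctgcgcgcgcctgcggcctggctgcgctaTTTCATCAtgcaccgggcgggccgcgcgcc
Aars: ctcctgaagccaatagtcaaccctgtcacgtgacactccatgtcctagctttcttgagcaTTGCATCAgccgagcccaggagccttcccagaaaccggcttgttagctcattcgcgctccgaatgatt
Slc7a11: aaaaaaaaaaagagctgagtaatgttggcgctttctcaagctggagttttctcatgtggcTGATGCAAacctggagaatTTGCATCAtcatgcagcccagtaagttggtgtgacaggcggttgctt
Pycr1: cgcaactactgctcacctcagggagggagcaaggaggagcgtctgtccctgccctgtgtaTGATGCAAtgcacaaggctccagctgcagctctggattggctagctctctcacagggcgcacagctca

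Transporters and enzymes of serine and one-carbon metabolism led the list. Slc7a5, the large neutral amino acid transporter, rose from 631 and 483 to 1289 and 999 (log2 change 1.04), while its partner chain Slc3a2 was at 1050 and 1110 with DMSO and 1056 and 993 with 4OHT and was not called. Mthfd2 and Aldh1l2, mitochondrial folate enzymes, rose from 138 and 146 to 354 and 302 (1.20, limma adjusted p = 1.06e-06) and from 22.1 and 21.0 to 70.1 and 75.7 (1.71). Phgdh and Psat1, the first steps of serine synthesis, rose by 1.28 and 0.52, and Cth, which makes cysteine, from 211 and 162 to 466 and 384 (1.19). The member that fell was Shmt2, the mitochondrial serine hydroxymethyltransferase, from 80.3 and 73.8 to 29.2 and 35.0 (-1.24). Asns, the asparagine synthetase, rose from 392 and 368 to 625 and 563 (0.64, limma adjusted p = 0.000172). Slc7a11, the cystine carrier, was at 26.0 and 26.4 with DMSO and 34.7 and 38.1 with 4OHT, a change of 0.46 that was not called (limma adjusted p = 0.107), and Pycr1, of proline synthesis, changed by -0.03.

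Among the synthetases the largest rises were in Cars (460 and 418 to 987 and 872, log2 change 1.08), Gars (741 and 770 to 1606 and 1443, 1.01, limma adjusted p = 5.31e-07) and Yars (197 and 180 to 382 and 339, 0.93), which charge cysteine, glycine and tyrosine. Aars rose from 913 and 1018 to 1247 and 1281 (0.39). Qars and Vars fell by 0.47 each, and both calls were lost in 2 of 4 settings with a library left out.

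Of 18 genes encoding ATF4 stress factors 7 rose and 3 fell, with a median of 0.19. Without either 4OHT library, or without the first DMSO library, 1 fall was called. Chac1, which breaks down glutathione, rose from 11.7 and 13.7 to 109 and 90.2 (log2 change 2.87, limma adjusted p = 2.11e-08), and Stc2, a secreted glycoprotein, from 15.7 and 21.3 to 158 and 125 (2.88, limma adjusted p = 1.13e-08). Trib3, a pseudokinase that restrains the response, rose by 1.28, and the factors Ddit3 and Atf3 rose from 150 and 139 to 294 and 259 (0.93) and from 113 and 122 to 211 and 212 (0.84). Atf4 itself was at 630 and 605 with DMSO and 550 and 579 with 4OHT and was not called. Sesn2 (0.19), Ddit4 (-0.10) and Vldlr (0.19) were not called either. Stc2 and Slc1a4 were the genes called higher in the fit over all 8 libraries. In the separate list of the unfolded protein response of the endoplasmic reticulum 7 of 25 rose and 4 fell (28.0% and 16.0%, near the 20.4% and 16.0% of all genes; median 0.16), and without the first 4OHT library 4 rose and 2 fell. Herpud1 and Xbp1 (57.6 and 57.4 to 93.3 and 102, 0.75) rose, while the chaperone gene Hspa5 was at 2508 and 2677 with DMSO and 2206 and 2174 with 4OHT (-0.24, limma adjusted p = 0.0563).

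Targets of p53 gave 14 higher and 0 lower of 32, with a median of 0.24, and 9 higher without the first 4OHT library. This count and that of apoptosis regulators below stand beside 20.4% higher and 16.0% lower over all genes tested. Besides Perp, the death receptor gene Fas rose from 29.7 and 36.3 to 84.4 and 82.8 (log2 change 1.32, limma adjusted p = 2.47e-05). Foxo3 and Zfp365 rose from 563 and 550 to 1223 and 1079 (1.04) and from 406 and 462 to 924 and 832 (1.02). Better known targets gave smaller changes. Cdkn1a, the cell cycle inhibitor p21, rose from 1282 and 1256 to 1629 and 1498 (0.30, limma adjusted p = 0.0229, with an adjusted p of up to 0.26 when a library was left out). Mdm2 (6462 and 8379 against 8424 and 8194) and Ccng1 (3065 and 3116 against 3117 and 3233) were not called. Of 22 apoptosis regulators 7 rose, among them the anti-apoptotic gene Bcl2l1 (260 and 255 to 467 and 503, 0.91), and 1 fell (3 and 2 without the first and the second DMSO library), Casp9 (107 and 111 to 59.7 and 53.5, -0.94).

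Genes of the 2-cell embryo, which a small share of embryonic stem cells in culture express, were among the largest rises of genes of low level. Zscan4d (chr7:11161643-11166148) was at 7.08 and 7.16 with DMSO and 84.0 and 88.0 with 4OHT (log2 change 3.42, SE 0.23, limma adjusted p = 8.27e-09). Zscan4c rose from 6.53 and 7.33 to 58.4 and 65.2 (2.98), Zscan4f from 9.72 and 9.25 to 90.8 and 70.1 (2.95), and Usp17le from 5.14 and 4.54 to 42.1 and 32.6 (2.71). Gm5662 rose from 3.61 and 5.76 to 55.7 and 52.1 (3.30). In all of these the 4OHT libraries were several times above the DMSO libraries. Each had both DMSO values under the minimum of 10 and passed only through the 4OHT libraries. Each therefore had to differ in this direction, and its separation is no evidence beyond that selection. Zscan4 genes are near-identical copies, and reads may have been shared among them. Of 36 such genes listed, 17 passed the minimum, of which 15 were called higher and 0 lower. Of these 12 passed only through the 4OHT libraries, so that these counts show no more than their selection. Without either 4OHT library 5 still passed the minimum, and 1 or 2 of those were called. Of the 19 below the minimum, 14 had both 4OHT libraries above both DMSO libraries and 0 the reverse, with values up to 16.1. Of all 18382 genes below the minimum, 3380 had both 4OHT libraries above both DMSO libraries and 3414 had the reverse. Zfp750 (152 and 159 to 302 and 276, 0.89) passed in both groups. Zfp760 (0.11) was not called.

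MERVL is the endogenous retrovirus of the 2-cell stage, with MT2_Mm as its promoter repeat. MERVL-int had values of 4603 and 4959 with DMSO and 11106 and 10355 with 4OHT (log2 change 1.17, SE 0.10, limma adjusted p = 1.12e-07), and MT2_Mm rose from 1172 and 1199 to 1648 and 1635 (0.47, limma adjusted p = 0.000926). The other 6 entries of the family were not called. At 0 min the libraries numbered 1 gave MERVL-int 999 with DMSO and 1012 with 4OHT, whereas those numbered 2 gave 1680 and 4104. Zscan4d behaved alike at 0 min, with 2.0 and 0.311 in number 1 and 0.406 and 16.7 in number 2. Over all genes tested 20.4% were called higher and 16.0% lower, against 20.6% and 23.5% of the retrotransposon and 2-cell repressors listed. The list of retrotransposon and 2-cell repressors gave 7 higher and 8 lower of 34 (median -0.10), and without either 4OHT library 3 or 4 higher and 4 lower, and without the first DMSO library 4 higher. Among them Trim28, the co-repressor of retroviral silencing, fell from 1055 and 1019 to 800 and 842 (-0.34, limma adjusted p = 0.0128; up to 0.15 with a library left out), and Setdb1 (-0.14) was not called.

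Over all repeat types, 28 of 933 were higher and 72 lower, which is 3.0% and 7.72%, and without the first 4OHT library the counts were 10 and 28. Without the second 4OHT library they were 16 and 43. ETn elements are retrotransposons that depend on MusD for their proteins. Of 5 ETn and MusD types 3 rose and 1 fell (median 0.34), with 1 higher without the second 4OHT library and 0 lower without the first 4OHT or the second DMSO library. MMETn-int rose from 25730 and 25804 to 40472 and 43974 (log2 change 0.71, limma adjusted p = 0.000125; up to 0.058 with a library left out). IAP types gave 0 higher and 7 lower of 25 (3 to 6 lower with a library left out, median -0.07). Young LINE-1 types fell: L1Md_A had values of 27571 and 22740 with DMSO and 14945 and 15076 with 4OHT (-0.74, limma adjusted p = 8.81e-05), and 4 of 6 L1Md types were called lower (median -0.49). L1Md_T fell from 94841 and 75314 to 56868 and 59079 (-0.54), a call kept in 2 of 4 settings with a library left out. Of 96 other LINE-1 types 3 were higher and 2 lower, with 1 higher without either 4OHT library, 0 lower without the first 4OHT library and 1 lower without the second library of either group. The largest falls were in LTR types, RLTR44A (192 and 137 to 60.9 and 53.7, -1.49) and RLTR10D2 (85.5 and 54.3 to 22.4 and 28.4, -1.40), and 27 of 164 types of the group of other RLTR repeats were lower and 4 higher (13 and 2 without the first 4OHT library, 17 lower without the second). Limma called 0 of 15 B1 types, 0 of 5 B2 and B3 types and 0 of 8 B4 types, which are short interspersed elements. How reads with several places in the genome were counted is not given in the sources used here, so values of repeat types may be shared among near copies.

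Short genes of replication-dependent histones and small nuclear RNAs fell as groups. Replication-dependent histone genes make the histones packed onto new DNA, and their transcripts end in a stem-loop in place of a poly(A) tail. Of 70 of them, 62 fell and 1 rose, with a median of -0.72 and changes from -1.79 to 0.33. With a library left out 50 to 61 were lower. Hist1h2bc fell from 4781 and 5856 to 2547 and 2740 (log2 change -1.0, limma adjusted p = 1.32e-06). The linker histone genes Hist1h1c (-0.27) and Hist1h1e (-0.24) were not called. The gene that rose was Hist1h2be (0.33, limma adjusted p = 0.0141). Histone genes are near copies of each other, so single values are uncertain.

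Genes of spliceosomal and related RNAs fell in 13 of 21 cases, with 0 higher and a median of -0.95. Rnu12, the U12 RNA of the minor spliceosome, fell from 189 and 162 to 43.6 and 39.7 (log2 change -2.05, limma adjusted p = 2.92e-08). Rnu5g, a U5 gene, fell from 160 and 130 to 37.4 and 48.9 (-1.73), and Rnu3b2, a U3 gene, from 252 and 230 to 71.3 and 85.1 (-1.62). Rn7sk, the RNA that holds the elongation factor P-TEFb inactive and is made by RNA polymerase III, fell less, from 6312 and 7013 to 5225 and 5640 (-0.29, limma adjusted p = 0.0311; up to 0.41 with a library left out). The table also counts structural RNA types apart from genes. Of 42 types 0 were higher and 14 lower, which is 0.0% and 33.3%. U8 fell from 159 and 199 to 42.3 and 50.4 (-1.92), U5 from 572 and 482 to 130 and 163 (-1.84) and U13 from 507 and 399 to 131 and 168 (-1.59). The types U8 and U13 are the RNAs of the genes Snord118 and Snord13, so they are not further evidence. The type U5 is likewise the RNA of U5 genes such as Rnu5g, so it is not independent of that gene. Of 23 tRNA types 4 were lower, and 2 without the second library of either group. The structural types made up 0.38% of reads in the DMSO libraries and 0.29% and 0.31% in the 4OHT libraries.

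Of 38 genes of ribosome biogenesis and Pol I 7 rose and 5 fell (18.4% and 13.2%, against 20.4% and 16.0% of all genes). Of 11 genes of Myc and its partners 4 rose and 1 fell. In the lists on proliferation and RNA processing that follow, most genes were not called, and more of those called were lower than higher. Of 36 genes of DNA replication and S phase 17 fell and 0 rose (median -0.29), and without the second library of either group 11 were called lower. Cdc6, which loads the replicative helicase, fell from 609 and 600 to 375 and 346 (log2 change -0.75, limma adjusted p = 3.23e-05), and the cyclin gene Ccne1 from 281 and 253 to 175 and 168 (-0.63). Of 25 mitosis genes 10 fell and 1 rose, and 5 or 6 were lower without the second DMSO library or either 4OHT library. Ccnb1, the mitotic cyclin B1, fell from 1346 and 1536 to 991 and 956 (-0.56), and Top2a from 4410 and 5498 to 3495 and 3476 (-0.50). Of 90 cytoplasmic ribosomal protein genes 24 fell and 1 rose (median -0.19), with 0 to 6 higher and 11 to 21 lower when a library was left out. Of 30 SR splicing, polyadenylation and export factors, the class of protein that YTHDC1 is known to bind, 9 fell and 1 rose (median -0.18), and the numbers higher and lower ran from 0 to 2 and from 2 to 15 with a library left out. Of 32 genes of RNA polymerase II pausing and elongation 1 rose and 2 fell, with 1 to 4 higher and 0 to 3 lower when a library was left out.

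Lists of signalling genes held calls in both directions. Of 33 immediate early genes, which respond to growth factors within minutes, 10 rose and 5 fell (30.3% and 15.2%, against 20.4% and 16.0% of all genes), with a median of 0.10. The share lower was near that of all genes, and 18 of the 33 were not called. Fos fell from 224 and 199 to 76.1 and 93.5 (log2 change -1.31, limma adjusted p = 1.9e-06), Junb from 366 and 366 to 169 and 188 (-1.03), Ier2 from 1309 and 1127 to 681 and 697 (-0.82) and Egr3, which passed the minimum through the DMSO libraries alone, from 14.6 and 14.8 to 2.84 and 3.07 (-1.99). The largest rise among them was in Gadd45g, a stress gene, from 11.1 and 9.95 to 56.7 and 50.4 (2.24, limma adjusted p = 1.18e-06). The ligand gene Fgf4 and some feedback genes of ERK signalling differed in direction. Fgf4, the main FGF of embryonic stem cells, fell from 94.0 and 92.5 to 61.4 and 58.9 (-0.62). Fgf8 fell from 19.6 and 24.3 to 6.01 and 5.07 (-1.81). It passed the minimum through the DMSO libraries alone, so that it had to differ in this direction. The ERK feedback genes Spry4 (284 and 284 to 528 and 510, 0.87), Dusp6 (392 and 404 to 571 and 612, 0.57) and Dusp4 (240 and 238 to 340 and 397, 0.62) rose, and the list had 10 higher and 2 lower of 22 (median 0.33), or 1 lower without either DMSO library. In the LIF pathway, Socs3, its feedback inhibitor, rose from 120 and 85.9 to 261 and 234 (1.27, limma adjusted p = 4.92e-06) and Stat3 from 266 and 211 to 385 and 351 (0.63). The gene of the shared receptor chain, Il6st, fell from 486 and 428 to 217 and 230 (-1.03), and Lifr (-0.06) was not called. Of 30 genes of the Wnt, Nodal and BMP pathways 11 rose and 4 fell, with 6 higher without the first 4OHT library and 2 lower with any 1 library left out. The BMP targets Id1 and Id2 rose from 67.0 and 50.9 to 124 and 121 (1.06) and from 168 and 120 to 318 and 276 (1.06).

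The markers that define embryonic stem cells were present in every library. Summed over 30 naive pluripotency genes the values came to 14800 and 14000 with DMSO and 14500 and 14300 with 4OHT, and 6 genes rose and 9 fell, 5 of them without the first library of either group. Pou5f1 was at 260 and 185 with DMSO and 225 and 225 with 4OHT, and Esrrb at 1880 and 1959 against 1759 and 1783; neither was called, nor were Klf4 (-0.18) and Zfp42 (-0.15). Sox2 rose from 320 and 299 to 411 and 443 (log2 change 0.46). Nanog fell from 216 and 206 to 115 and 98.3 (-0.98, limma adjusted p = 2.33e-05), Nr0b1 from 106 and 101 to 26.6 and 32.3 (-1.78, limma adjusted p = 6.97e-07), Tdgf1 by 0.63 and Dppa5a by 0.45, the last with an adjusted p of up to 0.27 when a library was left out. Gbx2, a naive factor downstream of LIF, rose from 16.1 and 20.0 to 63.5 and 46.9 (1.55).

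Markers of other cell types were mostly low. Their counts stand beside 20.4% higher and 16.0% lower over all genes tested. Of 15 mesoderm and primitive streak genes 6 passed the minimum and 3 fell, among them T, from 11.7 and 18.8 to 1.89 and 1.42 (log2 change -2.58), and 1 or 2 were called with a library left out. T and Fgf8, 2 of the 3, passed only through the DMSO libraries, so that they had to differ in this direction. The summed value of the 6 was 326 and 276 with DMSO and 251 and 245 with 4OHT. Of 11 primitive endoderm genes tested 4 rose and 1 fell (summed values 954 and 1000 with DMSO and 1420 and 1320 with 4OHT), and 2 rose and 0 fell without either 4OHT library, and 0 fell without the second DMSO library. The laminin gene Lamb1 rose from 104 and 96.9 to 345 and 281 (1.62), while Sox17 was at or under 4.86 in every library. Trophoblast genes (summed values 250 and 279 with DMSO, 154 and 174 with 4OHT) had 5 of 9 lower and 1 higher (3 and 0 without the first 4OHT library, 0 higher without the second), with Krt19 from 48.5 and 61.5 to 13.5 and 21.3 (-1.63); Cdx2 and Elf5 did not pass the minimum. Fibroblast and feeder genes (1570 and 1590, then 1130 and 1120) had 4 of 8 lower and 0 higher (2 lower without the second DMSO library, 1 higher without the first 4OHT library), and Col3a1 and Dcn were at or under 3.77. Of 18 germline genes 3 were higher and 5 lower, and 0 were higher without the second 4OHT library and 3 lower without the first library of either group. The 1 trophoblast gene called higher passed the minimum only through the 4OHT libraries, so that it had to differ in this direction. The part of cells of these other types in the changes above was not tested.

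Chromatin regulators of the Polycomb and TET families had 10 of 22 higher and 2 lower, with a median of 0.30, and 1 was lower without either 4OHT library or the second DMSO library. The counts of this list, of long noncoding RNAs and of imprinted genes stand beside 20.4% higher and 16.0% lower over all genes tested. Tet3, which oxidises 5-methylcytosine, rose from 96.0 and 84.9 to 178 and 169 (log2 change 0.93, limma adjusted p = 5.56e-05). Jarid2, a partner of Polycomb complex PRC2, rose from 2000 and 2113 to 3044 and 3200 (0.60). The core PRC2 genes Ezh2 (1046 and 1006 to 819 and 740, -0.40) and Suz12 (1825 and 2320 to 1536 and 1632, -0.38) fell, with adjusted p up to 0.092 and 0.13 when a library was left out. Of 22 nuclear long noncoding RNAs 9 rose and 2 fell (0 fell without either 4OHT library and 1 without the second DMSO library). Pvt1, the neighbour of Myc, rose from 1198 and 1279 to 2231 and 2266 (0.86), and Malat1 from 39837 and 42098 to 58817 and 63569 (0.58), a call kept in 2 of 4 settings with a library left out. Imprinted genes gave 9 higher and 3 lower of 26, with 5 higher without the first 4OHT library. Meg3, Rian and Mirg, neighbours on chromosome 12 expressed from the maternal copy, rose together, Meg3 from 459 and 398 to 796 and 774 (0.88, limma adjusted p = 6.25e-06), Rian by 0.66 and Mirg by 1.39. Phlda2 fell from 39.7 and 47.8 to 11.6 and 20.4 (-1.44) and Peg10 from 1570 and 2203 to 943 and 1334 (-0.73).

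Calls differed with gene class and gene length. Of 13764 protein-coding genes 24.0% were higher and 14.2% lower, of 1258 long noncoding RNA genes 15.3% and 23.3%, and of 1431 pseudogenes 5.03% and 22.3%. Pseudogenes called higher went from 72 to 47 and 27 without the first and the second 4OHT library and to 137 without the first DMSO library, and those called lower from 319 to 181 without the first 4OHT library. Without that library 97 in place of 192 long noncoding RNA genes were higher and 181 in place of 293 lower, and 1967 in place of 3298 protein-coding genes higher and 1284 in place of 1957 lower. Among protein-coding genes of up to 3 kb, 9.91% were higher and 23.7% lower (636 genes, median log2 change -0.14), and those higher went from 63 to 29 without either 4OHT library. From 3 to 10 kb the shares were 12.4% and 18.2% (280 higher, or 128 and 169 without the first and the second 4OHT library), from 10 to 30 kb 20.5% and 13.2%, and from 30 to 100 kb 31.0% and 10.9%. Genes of 100 to 300 kb had the highest share of rises, 35.5%, with 13.7% lower (1715 genes, median 0.18). Beyond 300 kb, 26.8% of 549 genes were higher and 21.1% lower, with a median of -0.01. Without the first 4OHT library 506 in place of 913 genes of 10 to 30 kb and 774 in place of 1287 of 30 to 100 kb were higher, and over all genes 2312 in place of 3969. Those lower went to 264 from 412 at 3 to 10 kb, to 388 from 589 at 10 to 30 kb, to 296 from 454 at 30 to 100 kb and to 71 from 116 beyond 300 kb. These are differences between classes of genes in the same libraries and were not tested over samples. In 8 min polymerases cover only the first part of a long gene, and over which part of a gene reads were counted is not given in the sources used here.

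Genes of chromosome 12 were shifted upwards. Of its 580 genes tested 34.5% were higher and 9.66% lower, and their median log2 change was 0.20. Without the first 4OHT library 129 in place of 200 were higher and 28 in place of 56 lower. On the other chromosomes compared 12.1% to 27.5% were higher, and medians ran from -0.11 to 0.12. The difference was seen in the libraries numbered 1 (median 0.23) and in those numbered 2 (0.16), whereas at 0 min the median was 0.02. Leaving out imprinted genes left 34.1% higher. In 12 windows of 10 Mb along the chromosome, each with at least 15 genes, the median ran from 0.04 to 0.48, all above 0. The X chromosome had the lowest median, -0.11, with 76 of 630 genes higher and 134 lower, or 42 higher without the second 4OHT library and 74 lower without the first. DNA copy number was not analysed here, and its part in the values of chromosome 12, those of Meg3, Rian and Mirg included, was not tested.

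**Figure D4:**
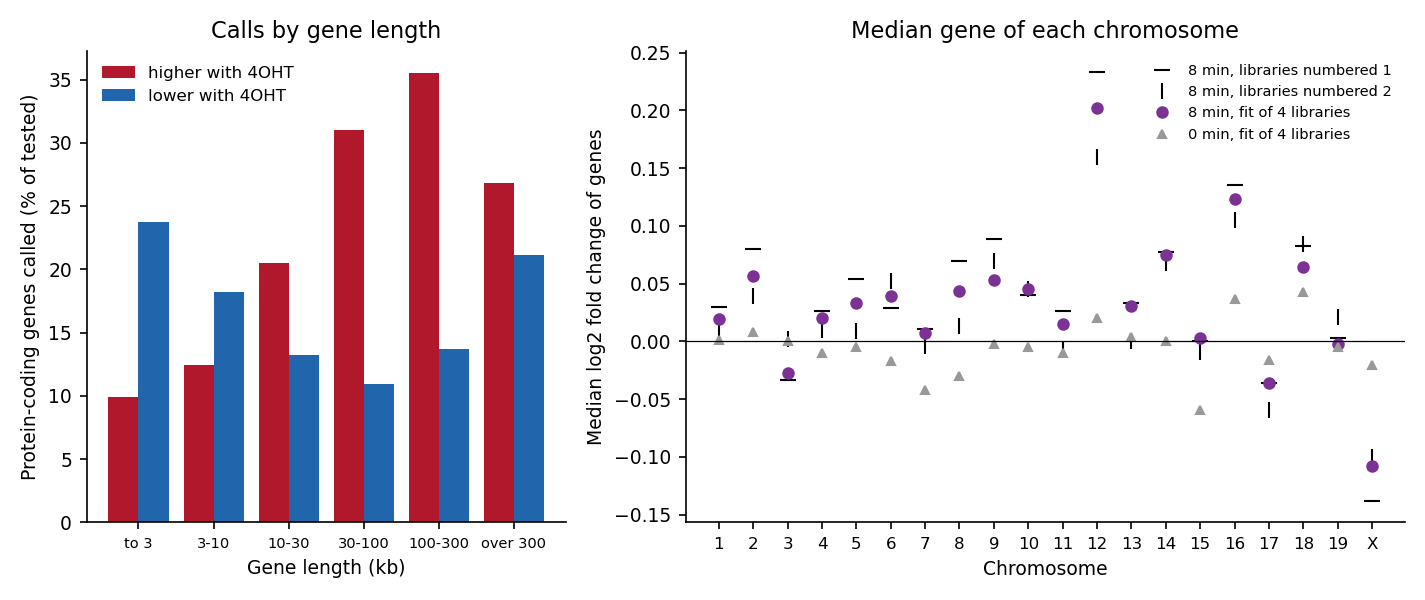
The bars give the percent of protein-coding genes called higher (red) or lower (blue) with 4OHT by gene length in kb, on an axis from 0. The other panel gives the median log2 change of the genes of each chromosome, at 8 min over 4 libraries (circles), in the libraries numbered 1 and 2 alone (bars), and at 0 min (triangles). The share of rises grows to 35.5% at 100 to 300 kb, and chromosome 12 is highest at 0.20.

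The 0 min libraries give the background of RNA pulled down without labelling time. There limma called 0 genes each way (119 higher and 86 lower at an unadjusted p under 0.05), and libraries of a group differed more, with a standard deviation of the log2 difference of 0.77 with DMSO and 0.83 with 4OHT. Of the genes higher at 8 min 63.1% were above 0 at 0 min (median 0.10), and of those lower 35.0% (median -0.10), against 49.0% of all genes. The difference of the 8 and 0 min effects gave 0 calls each way in limma (732 genes above and 644 below at an unadjusted p under 0.05), and edgeR also gave 0 each way. With the library number as a replicate block limma called 53 genes above and 111 below. At 0 min the libraries separated by number, with spike-in reads at 1200 and 1014 ppm in those numbered 1 and 6221 and 6729 ppm in those numbered 2. By the sample titles the times also come from different lines, so time and line cannot be told apart in this difference. Single genes of smallest p for that difference included Slc1a4, whose change was 1.94 at 8 min and -0.74 at 0 min (limma adjusted p of the difference 0.274), Scd1 (-3.44 and -0.21, 0.373) and Stc2 (2.88 and -0.28, 0.449). Herpud1, by contrast, was higher at both times (2.52 and 1.4). At 0 min it had 2.0 and 2.84 in DMSO libraries and 4.25 and 14.4 in 4OHT libraries, near the bottom of the range counted. For Scd1 the 0 min values were 222 and 166 without 4OHT and 224 and 124 with it, and these groups overlapped. The sterol list had a median of -0.15 at 0 min, the histone list -0.21 and the amino acid list -0.03.

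**Figure D5:**
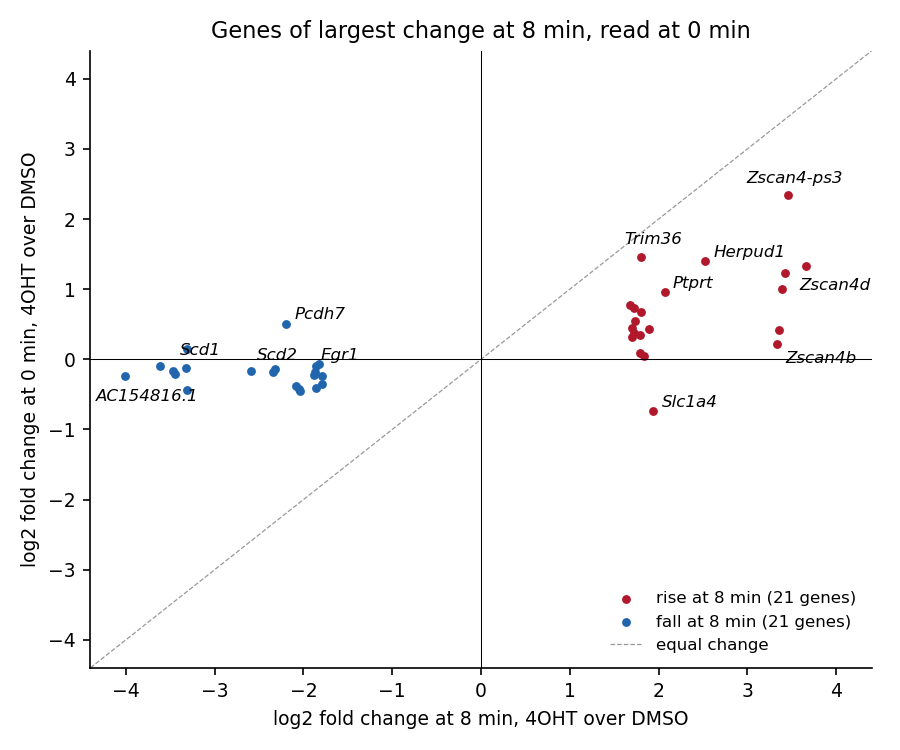
The 42 genes of largest change at 8 min, 21 that rose (red) and 21 that fell (blue), by their log2 change at 8 min and their log2 change at 0 min. The dashed line marks equal change. Points lie nearer to 0 on the 0 min axis, with Slc1a4, Pcdh7 and Olfr698 on the other side of 0.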

How the data were processed

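The authors deposited 1 table of signal values per entry for 8 libraries of 4sU-labelled RNA, each equal to whole reads divided by 1 number per library whose meaning is not given in the sources used here. The mm10 build and the tools Bowtie2, STAR 2.7 and bcl2fastq are named in the submitters' processing notes without the role of any. Multiplied back, every value came within 0.01 of a whole read (100%). Spike-ins were left out, the 4 columns of 8 min were rescaled by median ratio, and entries of at least 10 in at least 2 libraries were kept (10 units are 115 to 170 reads). log2(value + 1) was fitted with limma 3.58.1 (R 4.3.3, trended empirical Bayes, two-sided), adjusted by Benjamini-Hochberg at 0.05 over all 20387 entries tested. Fold changes on this scale understate changes of low genes. With 2 against 2 libraries an exact permutation test was not used.

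Counts of 19940 entries were simulated. Of 94 changes of log2 size 1, 71.3% were called, and of 101 of size 2, 100%, with 0.081% of unchanged entries. Far fewer entries were changed than were called in the data, and each library was drawn independently. These rates therefore do not carry over to the calls in the data. The 62 lists and the members named were chosen with earlier results of these data known. Named genes were the 15 largest changes each way at a mean of 100 or more, the 6 each way below it, and leading repeats. These were taken only from called entries whose groups did not overlap. Also named were 4 members of smallest p per list, m6A genes, and the 5 each way of smallest p for the difference between times. Others were chosen after their values were seen, to show members that did and did not move. Of 37794 genes 27997 matched RefSeq (GRCm38.p6) by symbol or synonym. Alternatives were edgeR 4.0.16 and DESeq2 1.42.0 on the recovered counts, which the authors did not deposit as such, other scalings, pseudocounts of 0.5 and 5, minimums, no trend, a replicate block, all 8 libraries, and leaving out each library. Strand and multi-mapping rules were not given, so overlapping genes are uncertain.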

Additional observations from a re-analysis of the deposited data

How the results depend on the processing

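Against 3969 genes higher, 3109 lower, 28 repeat types higher and 72 lower, the following alternatives moved a count by more than 1.5 times. A minimum of 100 gave 2536 genes higher and 1611 lower; no trend gave 2643 genes higher and 17 repeat types higher and 30 lower; no minimum gave 17 and 43 repeat types. The deposited scale gave 12353 and 22 genes and 511 and 0 repeat types, and read against the median gene 82 and 92 genes and 0 repeat types each way. Spike-in scaling gave 0 and 0 for genes and 0 and 0 for repeat types, also when read against the median gene (both readings were chosen after seeing the data). All 8 libraries gave 2 and 22 genes and 0 repeat types each way. Leaving out a library gave 2312 to 3930 genes higher, 1985 to 2747 lower, 10 to 30 repeat types higher and 28 to 70 lower. The cause of these moves was not tested, beyond the entries or libraries a setting removes. With the library number as a replicate block limma called 4485 genes higher and 3611 lower, and for the difference of the 8 and 0 min effects 53 above and 111 below against 0 and 0 without it. Libraries of the same number deviated together at 0 min (correlation of deviations 0.475) and little at 8 min (0.0913), and what the number stands for is not given in the sources used here. Of 251 named calls, edgeR and DESeq2 each kept 248, TMM scaling and pseudocounts of 0.5 and 5 all 251, quantile normalization 249 and no trend 208. All 8 libraries kept 14 of 245, the deposited scale against the median gene 31 of 249, and spike-in scaling 0 of 250. The SINE type B4A reversed under quantile normalization (-0.0663). With 2 libraries a group, changes under 2-fold are the least certain.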

Other observations

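Over all genes 20.4% were higher and 16.0% lower. Lysosome and autophagy genes had 12 higher and 1 lower of 30 (2 lower without the first 4OHT library or either DMSO library), with a median of 0.21. Uvrag, which acts in autophagosome maturation, rose from 171 and 158 to 425 and 350 (log2 change 1.22, limma adjusted p = 8.07e-07), Flcn, a regulator of lysosomal signalling, from 201 and 200 to 315 and 296 (0.60), and the protease gene Ctsd from 272 and 299 to 425 and 399 (0.53). Solute carriers had 68 of 245 higher and 34 lower (median 0.12). Rodent zinc finger genes of the Zfp9xx series had 19 of 60 higher and 4 lower (median 0.12), and 16 and 1 without the first 4OHT library. Nuclear genes of oxidative phosphorylation had 10 higher and 8 lower of 83, and 4 to 8 and 3 to 11 with a library left out.

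Heat shock chaperones had 0 higher and 3 lower of 20 (0.0% and 15.0%, against 20.4% and 16.0% of all genes). The number lower changed with the library left out. The heat shock element GAANNTTC was in 9 of 15 of their promoters, against 7.95% of all promoters and 6.05% of those of genes tested. Of these 9 promoters 0 belonged to genes called higher and 0 to genes called lower. Genes of the NRF2 response and metallothioneins had 1 higher (0 without the first 4OHT library) and 6 lower of 21, and those of double-stranded RNA sensing and the interferon response 6 higher and 2 lower of 17. Of 92 small nucleolar and Cajal RNA genes 10 were lower and 1 higher, and 3 or 4 were lower without either 4OHT library or without the second DMSO library.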
